A study of Mus musculus with 18 samples.

Results

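The miR-17-92 and miR-106b-25 clusters are groups of microRNA hairpins that are cut from shared primary transcripts, and their mature products were followed here in mouse sperm. Members were taken by name alone: every deposited miRNA entry named miR-17, miR-18a, miR-19a, miR-19b, miR-20a, miR-92a, miR-106b, miR-93 or miR-25, with any arm or copy suffix. This gave 20 of 1739 known miRNA entries (14 from miR-17-92 and 6 from miR-106b-25), or 9 of 1008 names once arms and copies were summed. Of the 20 entries, 17 reached 1 CPM (count per 1000000 library reads) in at least 3 libraries and entered the tests. The other 3, miR-19a-5p, miR-19b-2-5p and miR-92a-2-5p, had 1, 1 and 6 reads in all.

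Small RNA was sequenced from sperm of ICR mice, an outbred stock, in 6 groups of 3 libraries. The F0 NHS males received NH3 together with H2S, starting at 3 weeks of age and lasting 5 weeks, and F0 Con males were their controls. F1 NHS sons and F2 NHS grandsons received no treatment, the mothers being normal females, and each generation had its own Con group. F1 males, both NHS and Con, were mated in turn at 8 weeks of age. The labels state the generation and line of a library but not whether its replicates were separate animals, so a p-value here weighs a difference against the scatter among libraries, part of which may be technical. The lists of F1 NHS replicates 1 and 3 end before the miRNAs, which left 16 libraries and 1 library for F1 NHS.

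The miR-17-92 cluster is known as a proliferation-promoting locus that is active in spermatogonia and is named oncomiR-1 for its role in lymphoma. The miR-106b-25 cluster lies inside Mcm7, a gene for a subunit of the replicative helicase, and is a paralog whose members share seeds with miR-17-92. A mature miRNA recognises target RNAs mainly through its seed, so members with one seed are treated as one family. Either strand of a hairpin, the 5p or the 3p arm, can be loaded into Argonaute, and the other strand is usually lost.

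In GRCm38, the 6 hairpins of miR-17-92 lie on chromosome 14 between 115043671 and 115044506 on the plus strand, within an exon of the long noncoding RNA Mir17hg (115042879 to 115046727). Mir25, Mir93 and Mir106b lie on chromosome 5 between 138165321 and 138165818 on the minus strand, within Mcm7 (138164583 to 138172422). Mir25 and Mir93 overlap an annotated Mcm7 exon, and Mir106b lies in an intron. The mature miR-19b-3p and miR-92a-3p sequences also come from Mir19b-2 and Mir92-2 on chromosome X, in the related miR-106a-363 cluster, so their reads cannot be assigned to chromosome 14 alone. RefSeq (GRCm38.p6) gave a sequence for 19 of the 20 entries. The 9 arms by which these miRNAs are usually known are shown first, because the seed (bases 2 to 8, in capitals) sorts them into 4 families, and the 5 opposite arms follow because both arms of those hairpins were abundant.
mmu-miR-17-5p: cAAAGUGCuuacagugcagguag
mmu-miR-20a-5p: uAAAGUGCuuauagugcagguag
mmu-miR-93-5p: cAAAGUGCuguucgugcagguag
mmu-miR-106b-5p: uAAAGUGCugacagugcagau
mmu-miR-18a-5p: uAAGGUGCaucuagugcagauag
mmu-miR-19a-3p: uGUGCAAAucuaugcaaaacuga
mmu-miR-19b-3p: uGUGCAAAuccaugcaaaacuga
mmu-miR-25-3p: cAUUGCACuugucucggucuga
mmu-miR-92a-3p: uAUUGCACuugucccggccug
mmu-miR-17-3p: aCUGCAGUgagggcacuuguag
mmu-miR-18a-3p: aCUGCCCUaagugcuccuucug
mmu-miR-20a-3p: aCUGCAUUacgagcacuuaaag
mmu-miR-93-3p: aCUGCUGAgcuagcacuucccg
mmu-miR-106b-3p: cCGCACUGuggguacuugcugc

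The miR-17 seed AAAGUGC is shared by 4 members from both clusters, and the miR-92 seed AUUGCAC by miR-25-3p and miR-92a-3p, again 1 from each cluster. miR-18a-5p carries AAGGUGC alone among the members. miR-19a-3p and miR-19b-3p have the seed GUGCAAA, which no miR-106b-25 member has, and differ at 1 of 23 bases, U11C counted from the 5′ end of miR-19a-3p. miR-17-5p and miR-20a-5p differ at 2 of 23 bases. No seed is shared among the 5 opposite arms shown, though outside the clusters miR-106a-3p and miR-20b-3p also carry CUGCAGU, the seed of miR-17-3p.

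The 16 libraries held 18072900 to 29430555 reads, of which known miRNAs took 13.3% to 57.4% (3408722 to 13212381 reads). That share was 13.3%, 17.3% and 32.6% in F1 Con and 32.3%, 20.3% and 29.7% in F2 Con, against 51.8%, 40.6% and 57.4% in F0 Con. A count of 3 reads corresponds to 0.102 to 0.166 TPM. The germ cell and sperm list of 14 miRNAs took 3.53% to 19.2% of miRNA reads and 13 of its 14 members had reads in every library. Lists for other cells were present too, with smooth muscle and stroma (5 miRNAs) at 5.43% to 42.7%, red blood cells (4) at 2.17% to 15.5%, epithelium (6) at 2.86% to 6.46% and leukocytes (5) at 0.240% to 2.27%. Endothelium (1 miRNA) took 0.0938% to 1.26%, skeletal and cardiac muscle (4) 0.0392% to 0.308% and liver (1) 0.000505% to 0.0953%. In 6 libraries (F0 NHS 3, F0 Con 2, F1 NHS 2, F2 NHS 1, and F2 Con 1 and 2) 1 entry from a tRNA, novel_mir1, stood at 2378 to 18720 TPM, and below 1000 TPM in the other 10. These 6 are called tRNA-rich below, a split made after the values were seen. In these bulk samples, fewer cells of a type and less RNA per cell cannot be told apart.

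miR-93 was the most abundant member in every library. With its arms summed it averaged 1886 TPM over the 16 libraries (tags per 1000000 library reads, with no length term), and ranged from 864 to 4411 TPM. Its 2 arms, miR-93-5p and miR-93-3p, ranked 69 and 77 among the 1739 entries by mean TPM. miR-25 followed at 523 TPM (277 to 915) and miR-19b at 455 TPM (116 to 1427). miR-18a averaged 225 TPM (62.5 to 505), miR-20a 174 TPM (66.7 to 359) and miR-92a 119 TPM (27.9 to 225). miR-106b stood at 83.4 TPM (28.3 to 195) and miR-17, which names the first cluster, at 55.1 TPM (20.1 to 125). miR-19a was last in every library, at 9.20 TPM (1.30 to 33.4).

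The ends of this order were fixed and its middle was not. miR-93 exceeded miR-25 in 16 of 16 libraries, by 1.58-fold to 7.11-fold, and miR-17 exceeded miR-19a in 16 of 16, by 2.09-fold to 23.1-fold. miR-25 exceeded miR-19b in only 9 of 16 libraries, and the steps between miR-18a and miR-20a, miR-20a and miR-92a, and miR-92a and miR-106b each held in 11 of 16. The steps from miR-19b to miR-18a and from miR-106b to miR-17 held in 13 and 14 of 16. Members of 1 cluster could differ widely: miR-93 stood 5.38-fold to 77.0-fold above miR-106b. miR-19b stood 19.5-fold to 115-fold above miR-19a, though its reads may include those of the copy on chromosome X. How well each sequence was captured in the libraries was not measured, and it enters any comparison of levels between miRNAs.

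**Figure D1:**
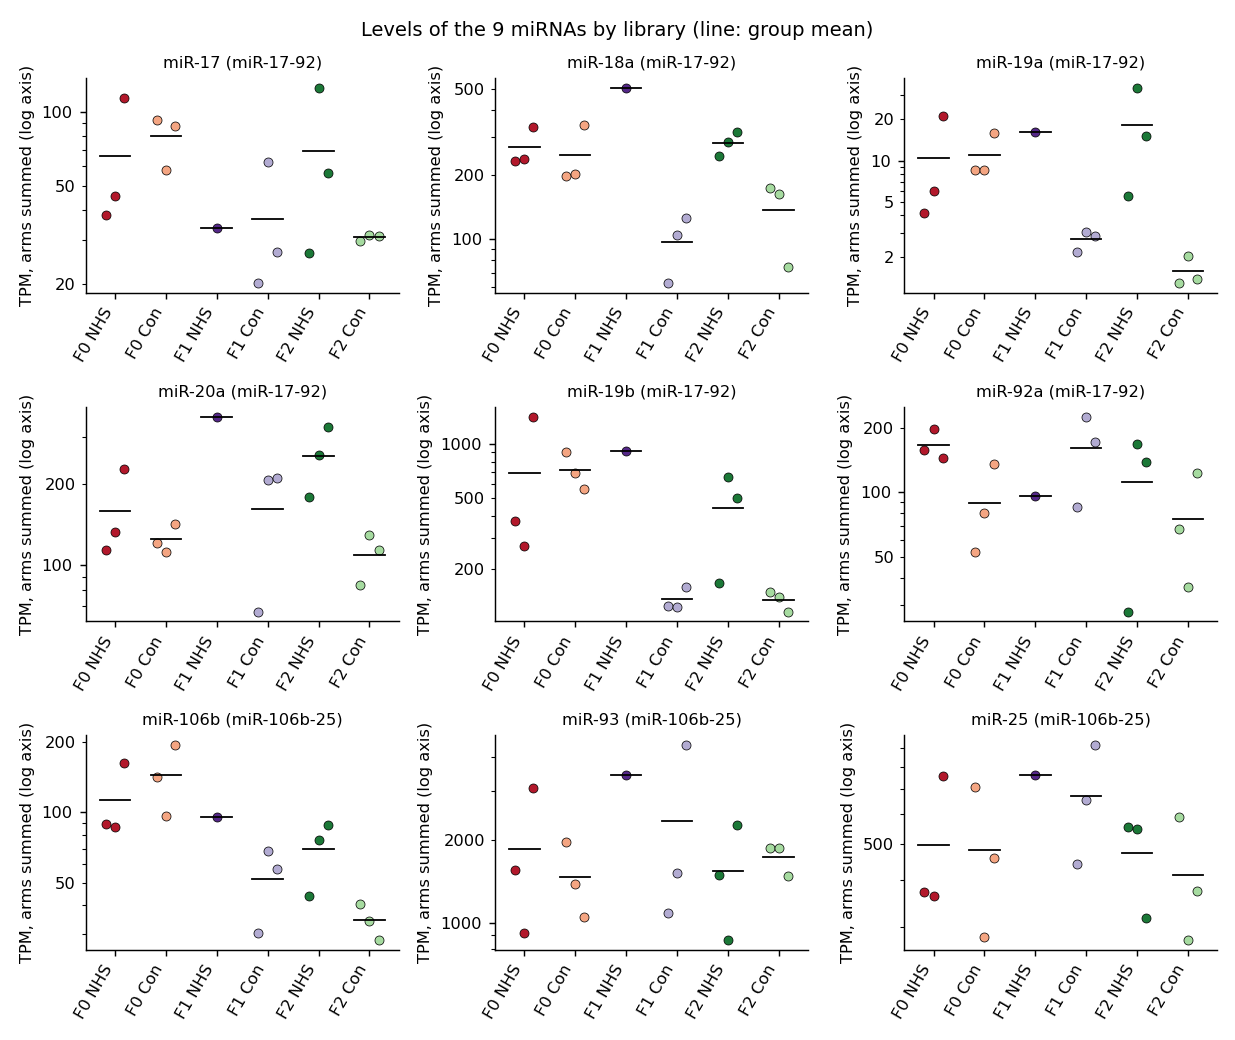
Level of each of the 9 miRNAs with its arms summed, in TPM on a log axis that differs between panels. Points are libraries, grouped by generation with NHS left of Con, and lines are group means. miR-19a lay between 5.55 and 33.4 TPM in F2 NHS libraries, above the 1.30 to 2.05 TPM of F2 Con libraries.

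By cluster, miR-93 supplied 75.7% of the miR-106b-25 reads, miR-25 21% and miR-106b 3.26%. In miR-17-92, miR-19b supplied 43.4%, miR-18a 21.8%, miR-20a 17%, miR-92a 11.7%, miR-17 5.19% and miR-19a 0.880%. Counted by seed, 1 arm led each shared family: miR-93-5p made up 64.7% to 97.8% of the 4-member miR-17 family (median 89.6%). miR-19b-3p made up 95.1% to 99.1% of the miR-19 family, and miR-25-3p 64.6% to 95.4% of its family with miR-92a-3p. The families AAAGUGC and AUUGCAC were thus supplied mostly from miR-106b-25, and GUGCAAA from miR-19b.

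Which arm was read differed between the hairpins. miR-19a, miR-19b, miR-92a and miR-25 were nearly all 3p, the arm usually reported as the guide: their 5p share was at most 1.39%, 0.585%, 4.15% and 2.21%. The other 5 hairpins had many reads from both arms, with a 5p share that varied between libraries of 1 group far beyond counting error. For miR-18a it was lowest at 2.0%, with a median of 41.7% and a highest of 87.8%. The miR-20a share ran from 5.50% to 94.0% (median 59.9%) and that of miR-93 from 20.2% to 96.7% (median 51.4%). For miR-17 it ran from 3.95% to 61.3% (median 31.8%) and for miR-106b from 2.75% to 67.8% (median 26.7%). The widest 95% Wilson half-interval over these 5 hairpins and 16 libraries was 4.04 percentage points. These intervals reflect counting error alone, and reads that carry no molecular identifier may be copies of 1 molecule.

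miR-18a shows the pattern best. Its 5p arm stood at 215, 123 and 6.31 TPM in F2 NHS libraries, against 131, 3.65 and 50.2 TPM in F2 Con libraries. Its 3p arm stood at 30.0, 162 and 308 TPM in F2 NHS, against 43.2, 159 and 23.8 TPM in F2 Con. The arms traded places within both groups. Their sum was 245, 285 and 315 TPM in F2 NHS, against 174, 163 and 74.0 TPM in F2 Con, where it was less even. Over the 16 libraries the 5p and 3p shares of miRNA reads had a Spearman rho of -0.71 for miR-18a, and of -0.33 to 0.42 for the other 8 hairpins, as a description of libraries that share their miRNA total.

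For miR-17, miR-18a, miR-20a and miR-106b the spread within groups was smaller for the sum than for either arm. The pooled within-group SD on the log2 scale was 2.04 for miR-18a-5p and 1.20 for miR-18a-3p, but 0.42 for their sum. miR-20a had 1.26 (5p), 1.46 (3p) and 0.45 (sum), miR-106b 1.43 (5p), 0.66 (3p) and 0.37 (sum), and miR-17 1.0 (5p), 0.88 (3p) and 0.70 (sum). The sum of miR-93 had 0.65, against 0.63 for its 5p and 1.19 for its 3p arm, and the sums of miR-19b (0.71) and miR-25 (0.48) were not below their 3p arms (0.66 and 0.43). Entries and names were scaled separately, so gaps as small as these between an arm and its sum are not interpreted. Medians over all features tested were 1.20 for 735 entries and 0.76 for 461 names. miR-25-3p, with almost no 5p partner, was at the 1.09 percentile of all entries.

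**Figure D2:**
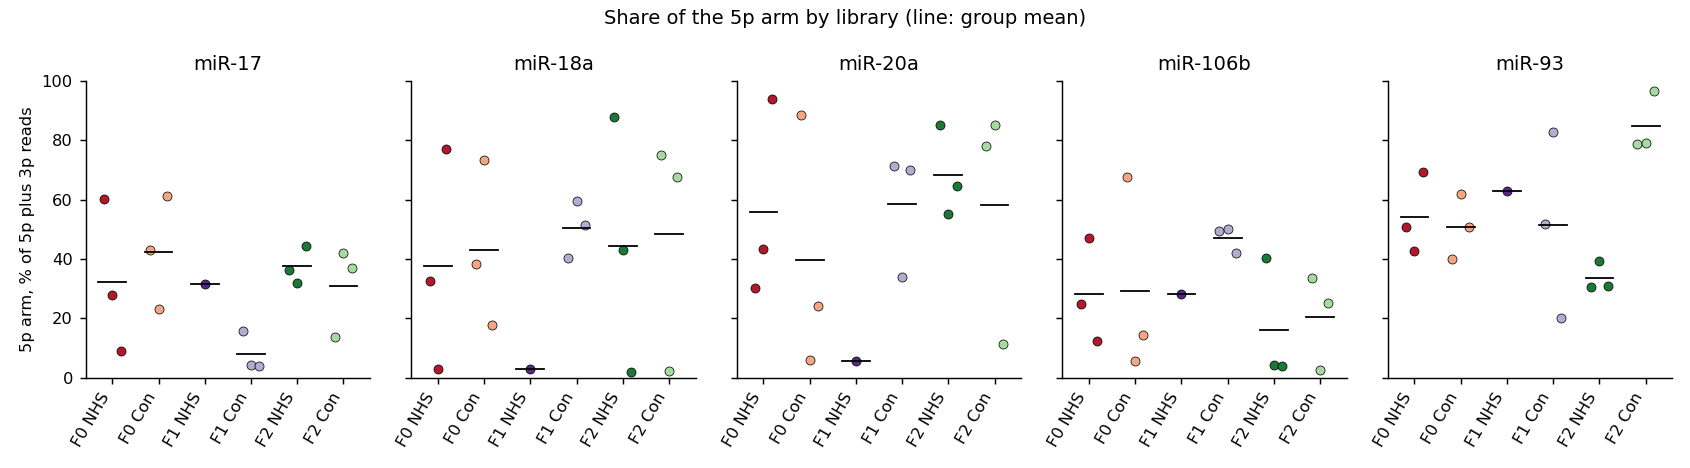
Share of the 5p arm among 5p plus 3p reads, in percent, for the 5 hairpins with many reads from both arms. Points are libraries, NHS left of Con in each generation, and lines are group means. miR-18a and miR-20a span most of the axis within single groups, while miR-93 separates F2 NHS (30.5% to 39.4%) from F2 Con (78.8% to 96.7%).

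The F0 comparison asks what direct treatment with NH3 and H2S does to these miRNAs in sperm. No member passed the test: 7 of 17 arms had a positive log2 fold change, and the members' median was -0.07, against 0.10 over all 735 entries. edgeR called 0% of entries, 0% of names and 0% of arm ratios in F0, and the members' fold changes ran from -1.19 to 0.99 (SE 0.57 to 1.23). The smallest adjusted p of a member arm was 0.754, and of a member name 0.591. Of the 735 entries, 45 had an unadjusted p under 0.05, none of them a member.

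miR-92a-3p, one of the AUUGCAC arms, was the only member arm whose F0 groups did not overlap. It stood at 157, 197 and 143 TPM in F0 NHS libraries, against 51.4, 79.1 and 135 TPM in F0 Con libraries. Every NHS library lay above every Con library, as for 8.03% of all entries, while 4.76% lay below throughout. The sum over its arms gave a log2 fold change of 0.90 (SE 0.59, edgeR adjusted p = 0.591). The most abundant member, miR-93-5p, stood at 787, 393 and 2124 TPM in F0 NHS, against 784, 855 and 533 TPM in F0 Con, and NHS replicate 3, which is tRNA-rich, was the highest of the 6. The germ cell and sperm list also kept these groups apart, at 10.3%, 16.2% and 5.81% of miRNA reads in F0 NHS, against 5.39%, 3.53% and 5.71% in F0 Con. The other lists overlapped, and the part of the marker lists in the F0 values was not tested.

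In F1 the single NHS library was set against 3 Con libraries, with its spread assumed to be that of the other groups. miR-18a stood at 505 TPM in F1 NHS, against 62.5, 105 and 125 TPM in F1 Con. miR-19b stood at 916 TPM in F1 NHS, against 124, 123 and 160 TPM in F1 Con, and miR-19a at 16.2 TPM, against 2.19, 3.06 and 2.83 TPM. The NHS library thus lay above all 3 controls for these. Their log2 fold changes were 1.96 (SE 0.55), 2.30 (SE 0.73) and 2.12 (SE 0.80), with an edgeR adjusted p of 0.376 for each. In all 5 of 9 names lay above the controls in TPM (these 3, miR-20a and miR-106b) and 0 below, against 44.5% and 15.2% of all names. By share of miRNA reads miR-18a, miR-19a and miR-19b lay above, and miR-25 and miR-92a below. On that scale the same count over all names was not made, so these 5 cannot be set against a background.

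The F1 value of miR-18a was not shared by its arms. miR-18a-3p stood at 490 TPM in F1 NHS, against 37.3, 42.6 and 60.5 TPM in F1 Con (log2 fold change 2.83, SE 1.17, edgeR adjusted p = 0.745). miR-18a-5p, the arm with the AAGGUGC seed, stood at 15.6 TPM in F1 NHS, against 25.2, 62.5 and 64.5 TPM in F1 Con (-2.23, SE 2.01, edgeR adjusted p = 0.789). The 3p arm thus lay above all 3 controls and the 5p arm below them. miR-20a did likewise, with its 3p arm at 339 TPM in F1 NHS, against 19, 137 and 63.8 TPM in F1 Con, and its 5p arm at 19.7 TPM, against 47.7, 70.5 and 148 TPM. Of all entries, 40.3% lay above in F1 NHS and 17.3% below. By contrast miR-25, miR-93 and miR-17 of the F1 NHS library, at 760, 3435 and 33.7 TPM, lay within the range of the F1 Con libraries (441 to 915, 1082 to 4411 and 20.1 to 62.8 TPM). miR-93-3p stood at 1270 TPM in F1 NHS, against 521, 261 and 3522 TPM in F1 Con. edgeR called 0% of entries, 0% of names and 0% of arm ratios in F1, with 44 entries at an unadjusted p under 0.05 and 7 entries called by DESeq2. The F1 NHS library is tRNA-rich and no F1 Con library is. Its list holds 42.3% of library reads, and the F1 Con lists hold 100%. Line, tRNA content and completeness of the list thus cannot be told apart there. Germ cell and sperm miRNAs took 10.8% of miRNA reads in F1 NHS, against 12.9% to 18.5% in F1 Con, and red blood cell miRNAs 15.5%, against 9.60% to 12.9%. Smooth muscle and stroma took 9.68% in F1 NHS, against 5.43% to 8.60% in F1 Con. The other marker lists of the F1 NHS library lay within the range of the F1 Con libraries, and the part of the lists was not tested.

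In F2, grandsons of treated males, the miR-17-92 arms lay on 1 side: 11 of its 11 tested arms had a positive log2 fold change for NHS over Con, with a median of 0.97, and so did 4 of 6 miR-106b-25 arms, with a median of 0.10. The median over all 735 entries was 0.15, with 53.6% positive. No single arm passed the test. edgeR called 0% of entries, 0% of names and 0% of arm ratios in F2, with 80 entries at an unadjusted p under 0.05, 3 of them members, and DESeq2 called 30 entries. The direction counts moved with the fit: over both clusters 15 of 17 arms lay higher, but 12 of 17 without F2 NHS replicate 1, 13 of 17 with a term for tRNA content, 12 of 15 in the F2 libraries alone, 11 of 16 in the tRNA-poor libraries and 14 of 17 with relative log expression scaling. For miR-17-92, 10 of 11 arms lay higher without F2 NHS replicate 1 or replicate 3, 9 of 11 with the tRNA term and 9 of 10 in the tRNA-poor libraries. Arms from 1 transcript are not independent of each other.

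miR-19a-3p had the most extreme F2 value among the members. It stood at 5.55, 33.4 and 15.1 TPM in F2 NHS, against 1.30, 2.05 and 1.38 TPM in F2 Con, where it was read only 31, 37 and 36 times. The means were 18 ± 14.1 TPM in F2 NHS and 1.57 ± 0.412 TPM in F2 Con (SD, n = 3 each). Per 1000000 miRNA reads it stood at 17.8, 101 and 39.1 in F2 NHS, against 4.01, 10.1 and 4.64 in F2 Con. The groups did not overlap on either scale, and both tRNA-rich and tRNA-poor NHS libraries lay above the controls. As a single arm it had a log2 fold change of 3.21, and no member arm had an edgeR adjusted p below 0.184 in F2. DESeq2 called the arm (3.11, adjusted p = 0.00184), the only call in 24 alternatives, over which its adjusted p ran up to 0.430. Summed per name, with the same F2 reads, miR-19a had a log2 fold change of 3.10 (SE 0.67, edgeR adjusted p = 0.0944). DESeq2 called it (3.16, adjusted p = 0.000435), as it called 6.72% of names and 4.08% of entries in F2. Without F0 NHS replicate 3 or F2 NHS replicate 1 edgeR called it too (adjusted p = 0.0398 and 0.0131), and over 24 alternatives its adjusted p ran from 0.000435 to 0.325. Among the 10 tRNA-poor libraries, which leave 1 F2 Con library, it had 3.98 (adjusted p = 0.122).

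miR-19b-3p, which shares the miR-19 seed, stood at 167, 653 and 500 TPM in F2 NHS, against 149, 139 and 116 TPM in F2 Con. All 3 NHS libraries lay above the controls, though the first was near them. Its log2 fold change was 1.43 (SE 0.67, edgeR adjusted p = 0.442). With both arms summed, miR-20a stood at 179, 258 and 329 TPM in F2 NHS, against 83.8, 129 and 113 TPM in F2 Con (0.85, SE 0.45, edgeR adjusted p = 0.390). miR-18a (sums given above) and miR-106b likewise did not overlap in TPM, whereas miR-17, miR-92a, miR-93 and miR-25 did. In all 5 of 9 names lay above throughout and 0 below, against 12.1% and 4.77% of all 461 names. By share of miRNA reads, miR-19a alone of these 5 kept its groups apart.

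miR-93-5p, the leading AAAGUGC arm, had the lowest F2 value among the members. It stood at 454, 341 and 695 TPM in F2 NHS, against 1467, 1480 and 1427 TPM in F2 Con. Every NHS library lay below every control, also per 1000000 miRNA reads. Its opposite arm, miR-93-3p, stood at 1032, 524 and 1557 TPM in F2 NHS, against 394, 389 and 48.9 TPM in F2 Con, with all NHS libraries above. Per 1000000 miRNA reads the groups of miR-93-3p overlapped, at 3308, 1578 and 4022 in F2 NHS, against 1219, 1920 and 165 in F2 Con. The log2 fold changes were -1.79 for miR-93-5p (SE 0.66, edgeR adjusted p = 0.323) and 1.62 for miR-93-3p (SE 0.90, edgeR adjusted p = 0.529). DESeq2 called miR-93-5p (-1.92, adjusted p = 0.0401), the only call in 24 alternatives, over which its adjusted p ran up to 0.732. The other 3 AAAGUGC arms had log2 fold changes of 1.06 (miR-17-5p, SE 0.77), 1.10 (miR-20a-5p, SE 0.93) and 0.16 (miR-106b-5p, SE 1.02), and none passed the test. Over entries in TPM, 11.7% lay above throughout in F2 NHS and 4.63% below. Among the 17 member arms 5 lay above (miR-19a-3p, miR-19b-3p, miR-20a-5p, miR-92a-1-5p and miR-93-3p) and 1 below (miR-93-5p). By share of miRNA reads, 2 lay above (miR-19a-3p and miR-92a-1-5p) and 1 below (miR-93-5p), against 6.94% and 7.62% of entries. Of these, miR-92a-1-5p had few reads, 30, 24 and 31 in F2 NHS, against 6, 4 and 20 in F2 Con.

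The 5p share of miR-93 was 30.5%, 39.4% and 30.9% in F2 NHS libraries, against 78.8%, 79.2% and 96.7% in F2 Con libraries. The log2 ratio of 5p to 3p reads was lower by 3.89 in NHS (log2 fold change of the ratio -3.89, SE 1.26, limma adjusted p = 0.256). Of the 298 hairpins tested, 5.70% had every NHS ratio above and 7.72% every NHS ratio below the controls. Summed over its arms miR-93 overlapped between the groups, at 1486, 864 and 2252 TPM in F2 NHS, against 1861, 1869 and 1476 TPM in F2 Con. In F0 the same share overlapped, at 50.9%, 42.8% and 69.2% in NHS, against 40.1%, 61.9% and 50.9% in Con. miR-19a is also listed with a ratio, but its 5p arm had 1 read in all, so its ratio only restates the 3p count.

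**Figure D3:**
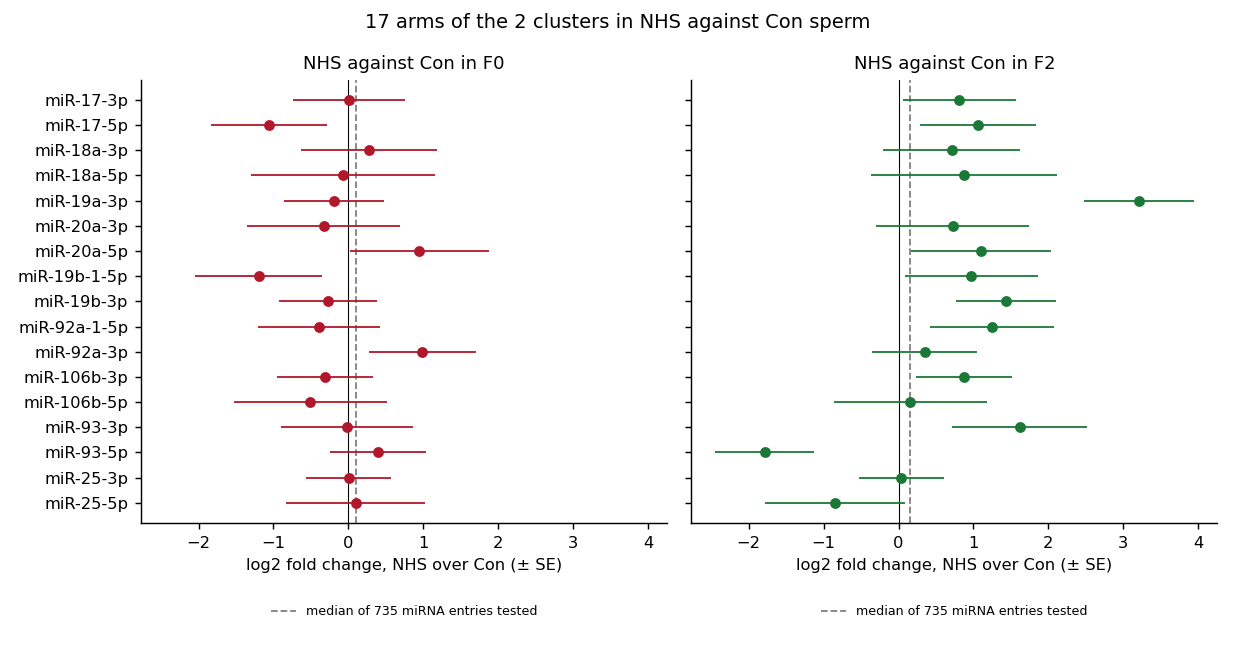
Log2 fold change of NHS over Con with its SE for the 17 tested arms, in F0 (left) and F2 (right), from edgeR. The dashed line is the median of all 735 entries tested, 0.10 in F0 and 0.15 in F2. The F0 arms scatter around 0, whereas 15 of 17 F2 arms lie above 0, with miR-19a-3p at 3.21 and miR-93-5p at -1.79.

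Summed by seed, the main arms gave opposite pictures for 2 families in F2. The 4 AAAGUGC arms together stood at 634, 527 and 936 TPM in F2 NHS, against 1550, 1604 and 1459 TPM in F2 Con. The 2 GUGCAAA arms stood at 173, 686 and 515 TPM in F2 NHS, against 118 to 150 TPM in F2 Con. Both families separated the groups in TPM, in opposite directions, each through its leading arm. By share of miRNA reads, miR-93-5p still lay lower in every F2 NHS library, but the groups of miR-19b-3p overlapped. Seed families outside the clusters were not summed, so these values cannot be set against a background. The AUUGCAC arms overlapped in TPM, at 578, 711 and 450 TPM in F2 NHS, against 653, 312 and 488 TPM in F2 Con.

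The summed clusters, as scores over the members, were not tested. miR-17-92 stood at 653, 1522 and 1353 TPM in F2 NHS, against 505, 501 and 459 TPM in F2 Con, a log2 ratio of means of 1.27. As a share of miRNA reads it stood at 0.209%, 0.459% and 0.349% in F2 NHS, against 0.156%, 0.247% and 0.155% in F2 Con, and there the groups overlapped. The lists of the higher F2 NHS replicates, 2 and 3, hold 35.7% and 40.3% of library reads, with their miRNAs whole. Those of F2 NHS replicate 1 and of F2 Con hold 100%, and the part of this difference was not tested. miR-106b-25 overlapped with all arms counted, at 2083, 1487 and 2657 TPM in F2 NHS, against 2490, 2181 and 1878 TPM in F2 Con. Over its 3 main arms alone it did not, at 1022, 888 and 1011 TPM in F2 NHS, against 2066, 1757 and 1800 TPM in F2 Con. In F0, miR-17-92 stood at 917, 888 and 2270 TPM in NHS, against 1381, 1149 and 1286 TPM in Con.

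**Figure D4:**
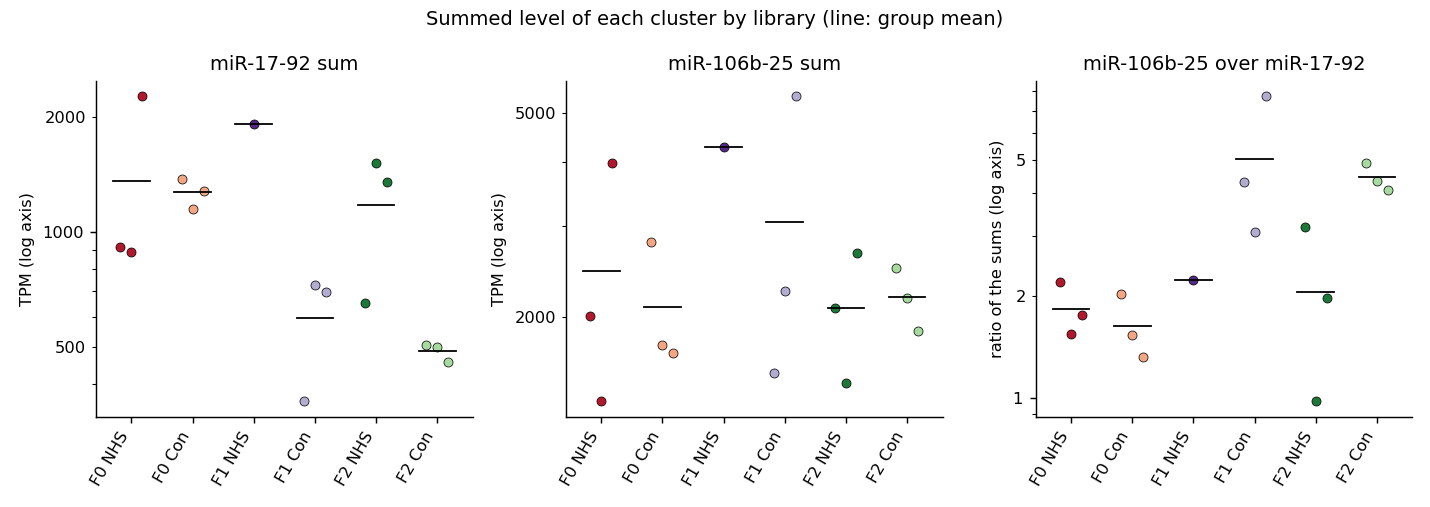
Sum of all arms of each cluster in TPM, and the ratio of miR-106b-25 to miR-17-92, on log axes. Points are libraries, NHS left of Con in each generation, and lines are group means. miR-17-92 in F2 NHS (653 to 1522 TPM) lies above F2 Con (459 to 505 TPM), and the ratio exceeds 3 in every F1 Con and F2 Con library.

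The F2 groups also differed in marker miRNAs. The germ cell and sperm list took 9.85%, 10.7% and 8.66% of miRNA reads in F2 NHS, against 14.6%, 19.2% and 15.0% in F2 Con. The epithelial list took 4.85%, 6.46% and 5.25% in F2 NHS, against 2.86%, 3.08% and 3.02% in F2 Con. Neither overlapped, nor did the low shares of skeletal and cardiac muscle (0.0786% to 0.296% in F2 NHS, 0.0392% to 0.0563% in F2 Con) and liver (0.00352% to 0.0607% and 0.000505% to 0.00221%). By contrast smooth muscle and stroma (8.01% to 12.5% in F2 NHS, 5.70% to 11.2% in F2 Con), red blood cells (2.79% to 6.31% and 2.17% to 3.97%), leukocytes (0.918% to 1.17% and 0.815% to 1.58%) and endothelium (0.310% to 0.699% and 0.577% to 0.752%) overlapped. All 6 epithelial miRNAs had reads in every library. The part of the marker lists in the F2 values of the clusters was not tested.

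Whether the NHS effect differed between F2 and F0 was tested as the difference of the log2 fold changes. edgeR called 0% of entries, 0% of names and 0% of arm ratios, with 87 entries at an unadjusted p under 0.05 and 32 called by DESeq2. miR-19a had the largest difference among the members, 3.27 (SE 0.89, edgeR adjusted p = 0.0960). In F0 it stood at 4.18, 6.05 and 21 TPM in NHS, against 8.55, 8.50 and 15.9 TPM in Con, with the groups overlapping. DESeq2 called miR-19a (3.35, adjusted p = 0.0101), among 8.89% of names. Without F0 NHS replicate 3 or F2 NHS replicate 1, edgeR called it as well (adjusted p = 0.0304 and 0.0324), and over 24 alternatives its adjusted p ran from 0.0101 to 0.210. As a single arm, miR-19a-3p was called only by DESeq2 (adjusted p = 0.0223), and its adjusted p ran up to 0.393. No member arm had an edgeR adjusted p below 0.184 for this difference.

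Between the untreated control groups edgeR made calls among all names, but none among the members. It called 9.33% of 461 names for F1 Con against F0 Con and 8.24% for F2 Con against F0 Con, and 0% for F2 Con against F1 Con (DESeq2 13 names, 45 at an unadjusted p under 0.05). By entry the values were 0%, 0.136% and 0%, and by arm ratio 0.336%, 0% and 0%. These comparisons share the F0 Con or F1 Con libraries, and each generation is also a separate collection of samples, so generation and collection cannot be told apart.

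In F1 Con against F0 Con, 5 members had the smallest adjusted p-values, all above the threshold. By TMM-scaled edgeR, miR-92a had a log2 fold change of 1.79 (SE 0.60, adjusted p = 0.0664), miR-25 1.38 (SE 0.46, 0.0632), miR-93 1.37 (SE 0.52, 0.0916) and miR-20a 1.23 (SE 0.45, 0.0829). miR-19b had -1.53 (SE 0.58, edgeR adjusted p = 0.0893). DESeq2 called all 5 of these (adjusted p = 0.0113 to 0.0407), among 24.3% of names. Over 24 alternatives for each, their adjusted p ran from 0.0113 to 0.622, with 1 or 2 calls apiece. In TPM, miR-25 stood at 441, 655 and 915 in F1 Con, against 706, 281 and 457 in F0 Con, with the groups overlapping, and miR-19b at 124, 123 and 160 TPM in F1 Con, against 909, 690 and 566 TPM in F0 Con, far apart. Scaled by library totals, the median of all names moved to -0.86, and the positive values shrank to between 0.38 (miR-20a) and 0.84 (miR-92a), while miR-19b had -2.41 (edgeR adjusted p = 0.0195).

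Of the single arms, miR-17-5p had the lowest value in this comparison. It stood at 3.17, 2.72 and 1.06 TPM in F1 Con, against 39.8, 13.5 and 54.0 TPM in F0 Con. Every F1 Con library lay below every F0 Con library, as for 25.6% of entries in TPM, while 2.86% lay above. Its log2 fold change was -2.69 (SE 0.82, edgeR adjusted p = 0.154), and DESeq2, which called 9.25% of entries, called it (adjusted p = 0.00704; range over 24 alternatives 0.00704 to 0.312). The opposite arm, miR-17-3p, stood at 17, 60.1 and 25.8 TPM in F1 Con, against 52.7, 44.6 and 34.1 TPM in F0 Con. The 5p share of miR-17 was 15.7%, 4.33% and 3.95% in F1 Con, against 43.0%, 23.2% and 61.3% in F0 Con. No member's arm ratio was called in this comparison (smallest limma adjusted p = 0.507). Of 298 hairpins, 12 had every F1 Con ratio below F0 Con and 26 had every ratio above.

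In F2 Con against F0 Con, miR-19a, miR-19b and miR-106b came closest to the threshold of 0.05. miR-19a stood at 1.30, 2.05 and 1.38 TPM in F2 Con, against 8.55, 8.50 and 15.9 TPM in F0 Con (log2 fold change -2.12, SE 0.64, edgeR adjusted p = 0.0501). miR-19b stood at 149, 140 and 116 TPM in F2 Con, against 909, 690 and 566 TPM in F0 Con (-1.85, SE 0.58, edgeR adjusted p = 0.0560). miR-106b stood at 40.6, 34.3 and 28.3 TPM in F2 Con, against 142, 96.7 and 195 TPM in F0 Con (-1.40, SE 0.43, edgeR adjusted p = 0.0501). In each of the 3 all F2 Con libraries lay lower, by TPM and by share of miRNA reads. For miR-106b the 3p arm, at 27.0, 33.3 and 21.2 TPM in F2 Con, against 45.6, 91.2 and 167 TPM in F0 Con, lay lower in TPM only. Its 5p arm, with the AAAGUGC seed, overlapped on both scales, at 13.6, 0.941 and 7.12 TPM in F2 Con, against 96.1, 5.57 and 28.1 TPM in F0 Con. DESeq2 called all 3, among 21.3% of names, and so did edgeR with relative log expression scaling (adjusted p = 0.0435, 0.0480 and 0.0418) or library totals (0.0218, 0.0251 and 0.0218). Over 24 alternatives for each of miR-19a, miR-19b and miR-106b, 12, 9 and 7 made the call, and the adjusted p ran up to 0.153, 0.155 and 0.169. As single arms, miR-19a-3p and miR-19b-3p had 1 call each, by DESeq2 (adjusted p = 0.0263 and 0.0330), and the arms of miR-106b had 0. No member arm had an edgeR adjusted p below 0.130 in this comparison.

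The arms of miR-93 also stood apart between these controls. miR-93-5p stood at 1467, 1480 and 1427 TPM in F2 Con, against 784, 855 and 533 TPM in F0 Con (log2 fold change 1.44, SE 0.66, edgeR adjusted p = 0.249). miR-93-3p stood at 394, 389 and 48.9 TPM in F2 Con, against 1170, 525 and 514 TPM in F0 Con (-0.87, SE 0.89, edgeR adjusted p = 0.635). F2 Con lay above F0 Con in every library for the 5p arm, as for 6.67% of entries, and below for the 3p arm, as for 21.1%. The 5p share was 78.8%, 79.2% and 96.7% in F2 Con, against 40.1%, 61.9% and 50.9% in F0 Con, and its log2 arm ratio differed by 2.84 (SE 1.26, limma adjusted p = 0.404). Every F2 Con ratio lay above, as for 10.1% of hairpins, with 7.72% below. These are the control libraries of the F2 comparison, in which the F2 NHS share (30.5% to 39.4%) lay just under the F0 Con values.

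F2 Con against F1 Con gave a positive log2 fold change for 1 of 9 names, with a median of -0.81, against 0.08 over all names. miR-92a had the smallest adjusted p, at 67.7, 36.1 and 123 TPM in F2 Con, against 85.0, 225 and 171 TPM in F1 Con (-1.46, SE 0.60, edgeR adjusted p = 0.40).

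In TPM, 4 of 9 names lay below F0 Con throughout in F1 Con, and 5 of 9 in F2 Con. The background was 34.5% of all names in F1 Con and 27.8% in F2 Con, with 4.12% and 8.24% above throughout, where no member was. By share of miRNA reads 4 names lay above F0 Con throughout in F1 Con (miR-20a, miR-25, miR-92a and miR-93) and 1 below (miR-19b), against 25.8% and 9.76% of all names. In F2 Con 1 lay above (miR-93) and 3 below (miR-106b, miR-19a and miR-19b), against 23.2% and 11.3%. The low F2 Con level of miR-19a is also the control level of the F2 comparison: F2 NHS, at 5.55, 33.4 and 15.1 TPM, spanned the F0 Con values. For miR-19b the F2 NHS values of 168, 653 and 500 TPM reached the lower F0 Con values but not their top.

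**Figure D5:**
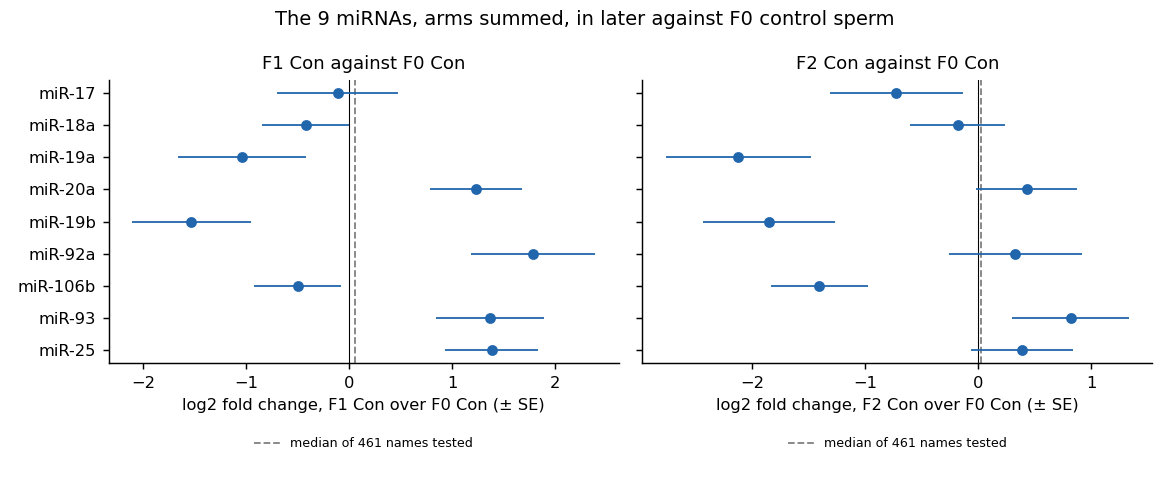
Log2 fold change with its SE for the 9 miRNAs, arms summed, in F1 Con (left) and F2 Con (right) over F0 Con, from edgeR with TMM scaling. The dashed line is the median of all 461 names tested, 0.05 (left) and 0.03 (right). miR-19a and miR-19b lie left of 0 in both panels, and miR-93, miR-25, miR-92a and miR-20a lie right of 0 in the F1 panel.

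Marker lists also separated the control groups. Germ cell and sperm miRNAs took 18.5%, 15.9% and 12.9% of miRNA reads in F1 Con and 14.6%, 19.2% and 15.0% in F2 Con, against 5.39%, 3.53% and 5.71% in F0 Con. Smooth muscle and stroma took 8.60%, 5.43% and 5.54% in F1 Con and 11.2%, 8.14% and 5.70% in F2 Con, against 15.3%, 42.7% and 12.9% in F0 Con. Neither list overlapped between the later controls and F0 Con. In F2 Con, epithelium (2.86% to 3.08%, against 4.03% to 5.56% in F0 Con) and leukocytes (0.815% to 1.58%, against 0.240% to 0.614%) did not overlap either. Skeletal and cardiac muscle lay lower in both later controls (0.0398% to 0.0796% in F1 Con and 0.0392% to 0.0563% in F2 Con, against 0.0840% to 0.308% in F0 Con). Liver lay higher in F1 Con (0.0142% to 0.0953%) and lower in F2 Con (0.000505% to 0.00221%), against 0.00589% to 0.0106% in F0 Con. Their part in the values above was not tested.

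The ratio of miR-106b-25 to miR-17-92 reads was 4.31, 3.09 and 7.72 in F1 Con and 4.93, 4.35 and 4.09 in F2 Con, against 2.03, 1.53 and 1.32 in F0 Con. In NHS it was 2.19, 1.54 and 1.76 in F0, 2.23 in the F1 library, and 3.19, 0.977 and 1.96 in F2. All 6 later control libraries lay above every F0 Con library. In F2 every NHS ratio lay below every Con ratio, and in F0 the groups overlapped.

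Within a cluster, names varied in how alike they were over the 16 libraries. By share of miRNA reads, miR-19a and miR-19b had a Spearman rho of 0.80, miR-18a and miR-19a 0.69, and miR-93 and miR-25 0.67. miR-92a had -0.10 with miR-19b and -0.08 with miR-18a, and miR-106b had -0.18 with miR-93. The 2 cluster sums had 0.12 with each other. The names most like miR-17-92 by this measure, among names with a mean of at least 100 CPM of miRNA reads, were miR-15a (0.73), miR-31 (0.65) and miR-16 (0.63). Those most like miR-106b-25 were miR-871 (0.79), a name on the germ cell and sperm list, miR-5099 (0.79) and miR-465c (0.75). All these values describe 16 libraries whose shares are taken from the same miRNA totals.

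Relatives outside the clusters were mostly rare. Of the X-linked miR-106a-363 cluster, miR-106a averaged 0.397 TPM, miR-18b 0.489, miR-20b 2.63 and miR-363 0.983. miR-106a-5p differs from miR-17-5p at 1 of 23 bases, U10A counted from the 5′ end of miR-17-5p. The autosomal miR-92 seed carriers miR-32 and miR-92b averaged 36.1 and 21.3 TPM, and miR-367 was not listed. Of the 7 relatives, 4 names entered the tests, and 0 were called in either direction in F0, F1 or F2 NHS or between controls. In F2, 3 of the 4 lay higher in NHS, with miR-32 at 26.4, 66.1 and 61.4 TPM in F2 NHS, against 14.5, 17.4 and 19.1 TPM in F2 Con (log2 fold change 1.21, SE 0.56, edgeR adjusted p = 0.326).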

How the data were processed

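Small RNA of 18 ICR mouse sperm libraries was sequenced in 6 groups of 3, and the 16 libraries that list miRNAs were used. The deposited counts are whole reads per small RNA, per the file headers, and the deposited TPM values equal the count per 1000000 library reads, with no length term. Build mm10 is named in the submitters' processing notes. The software that aligned and counted the reads is not given in the sources used here. For 3 partial lists (F1 NHS 2, F2 NHS 2 and 3) the library total was computed by dividing counts by TPM.

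Entries were tested singly and summed per name, over all miRNAs with at least 1 CPM in 3 libraries, with edgeR 4.0.16 (TMM, quasi-likelihood, two-sided, 6 group means, Benjamini-Hochberg, threshold 0.05). Arm ratios, log2 of 5p over 3p with pseudocount 0.5, were tested with limma 3.58.1 for hairpins with a mean of at least 10 CPM of miRNA reads. DESeq2 1.42.0, other scalings, no filter and left-out libraries were alternatives. The fits were also tried on simulated data with large changes and an assumed spread, a check that does not measure what could be detected here. Cluster sums, ratios and correlations are described without tests.

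The members and lists were chosen with earlier results of these data known. Named are all members, 7 relatives by count, and per cluster the 3 names with the highest Spearman rho over the libraries (mean of at least 100 CPM). The tRNA split was added after seeing the data.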

Additional observations from a re-analysis of the deposited data

How the results depend on the processing

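Of 800 alternatives run for 34 picked results on single members, 749 kept direction and side of the threshold, 47 passed it in addition and 4 changed direction. None of the 34 was called in its main fit, so keeping the side of the threshold meant staying uncalled. Many alternatives also left out a library outside the contrast. All 4 changes of direction were miR-106b-5p in F2 NHS against Con (0.16), at -0.09 with the replicate block, -1.39 in the tRNA-poor libraries and -1.32 to 0.98 with 1 library left out, negative without F2 NHS 1 or F2 Con 2. In F2, results outside the 34 changed sign too with 1 library left out. These ran from -0.08 to 2.24 (miR-18a-3p), -0.10 to 2.08 (miR-18a-5p), -0.20 to 0.32 (miR-25-3p) and -1.27 to 0.27 (miR-25-5p), among others. Of 17 arms, 12 to 16 lay higher in F2 NHS with 1 library left out. Counts of calls did change. With DESeq2, calls among entries were 1, 7 and 30 (NHS in F0, F1, F2), 32 (F2 minus F0), and 68, 87 and 24 (F1 Con and F2 Con against F0 Con, F2 Con against F1 Con). Among names they were 3, 6, 31, 41, 112, 98 and 13 in the same order. Without a filter, entries gave 3 (F2), 5 (F2 minus F0), 4, 14 and 8 (controls), and names 4, 9 and 8 (F2, F2 minus F0, F2 Con against F1 Con). Library totals gave 19 and 2 entries (F1 and F2 Con against F0 Con) and 103 names (F1 Con). Fitted on the libraries of a contrast alone, F2 Con against F0 Con had 0 entries, and F1 NHS and F2 Con against F1 Con had 1 name each.

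The tRNA term, chosen after seeing the data, gave 1 entry and 1 name in F0 and in F1, 1 name for F2 minus F0, 2 entries for F2 Con against F0 Con, and 1 entry and 1 name for F2 Con against F1 Con. The 10 tRNA-poor libraries, also chosen afterwards, gave 0 entries and 1 name for F2 Con against F0 Con, and 1 name in F2. They moved the F0 log2 ratios of the cluster sums to -0.56 (miR-17-92; 0.09 in all libraries) and -0.42 (miR-106b-25; 0.23). The single arm ratio called for F1 Con against F0 Con was joined by another with pseudocount 5 (2 calls) and lost (0) without a filter, in the libraries of the contrast, in the tRNA-poor libraries and with the replicate block.

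By share of miRNA reads the F1 log2 ratios of the sums were 0.73 (miR-17-92; 1.69 by TPM) and -0.29 (miR-106b-25; 0.49), and over the main arms miR-106b-25 in F2 had -0.94 (-0.07 over all arms). The cause of each change was not tested.

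Leaving out 1 library gave 0 to 1, 0 to 3 and 0 to 1 entries for the 3 control comparisons, 0 to 17 names in F2, 0 to 30 names for F2 minus F0, 6 to 52, 3 to 61 and 0 to 2 names for the controls, and 0 to 1 arm ratios for F1 Con against F0 Con and F2 Con against F1 Con. The F2 names reached their highest counts without F0 NHS 3 or F2 NHS 1. Log2 ratios of the sums ran from -0.50 to 0.33 (miR-17-92, F0, lowest without F0 NHS 3) and 0.17 to 1.18 (miR-106b-25, F1).

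Same-numbered replicates correlated between -0.22 and 0.17 in their deviations, and 4 of 12 libraries correlated best with their own number, so the numbers were not taken as pairs. With the replicate block, 1 member was called, miR-19a for F2 Con against F0 Con (-2.15, edgeR adjusted p = 0.0492). The 1-library F1 NHS group and low counts, such as 31 to 37 reads of miR-19a-3p in F2 Con, limit what could be detected.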
